A study of Mus musculus with 6 samples.

Results

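The 10 genes described here encode enzymes and regulators of de novo lipogenesis, and they were chosen by name: *Acly*, *Acaca*, *Acacb*, *Fasn*, *Elovl6*, *Scd1* and *Scd2* as enzymes, and *Srebf1*, *Mlxipl* and *Thrsp* as regulators. All 10 were found by their symbols among the 19831 genes of the deposited table, and all 10 averaged 10 normalized counts or more. The table comes from RNA sequencing of inguinal adipose tissue (iAT), the subcutaneous fat of the groin, of mice at postnatal day 6. It compares 3 wild-type samples (WT) with 3 samples from mice without *Npffr1* (Npffr1-KO), which encodes a receptor for neuropeptide FF, and so asks what the loss of this receptor changes in the tissue. The labels give the 2 genotypes and no treatment, and they do not state the sex, the strain, the litter, the design of the deletion, or whether each sample is a single animal.

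De novo lipogenesis is the synthesis of fatty acids from carbohydrate carbon. Citrate leaves the mitochondria and is split into acetyl-CoA, which is carboxylated to malonyl-CoA, and fatty acid synthase builds palmitate from these units. Palmitate is then elongated and desaturated to oleate, a main fatty acid of stored fat. The program is known to be driven by the transcription factors SREBP-1c, under insulin, and ChREBP, under glucose, and to be low while pups take up fat from milk. How far each of these factors drives it in iAT was not tested.

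The table holds a single value per gene and genotype, on the scale of counts normalized for library size, so these values give no spread between samples, and no test between the genotypes was run. Over all genes these values add up to 23137343 normalized counts in WT and 23640005 in Npffr1-KO. They are not plain means of the 3 libraries. No gene is at 0 in either genotype, and among the 585 genes with a mean under 0.183 normalized counts, about a single read in the 6 libraries, the ratio of the 2 genotypes was at most 0.07 in size on the log2 scale. The values of such genes are thus drawn together, and how far this also holds for higher genes is not known. *Npffr1* itself was barely detected, with 1.12 normalized counts in WT and 0.855 in Npffr1-KO, and therefore does not check the labels. Differences are given as the log2 ratio of the Npffr1-KO value over the WT value, and a gene counts as past the fold where this ratio is at least 0.5 in size, which is 1.41-fold. The background is formed by the 15309 genes that averaged 10 normalized counts or more over both genotypes, whose median log2 ratio was 0.01. Longer genes were lower and shorter genes higher in Npffr1-KO across this background, with a Spearman rho of -0.384 between the log2 ratio and gene length over genes, which are not independent replicates. Each log2 ratio was therefore also centred by subtracting the median of background genes of like length, taken in 20 length classes.

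None of the 10 lipogenesis genes was past the fold, while 4.37% of the background genes were higher and 4.78% lower by this measure. All 10 averaged more than 100 normalized counts, and of the 12219 genes that averaged at least 100, 6.06% were past the fold in either direction. A count of 0 among 10 genes is near these shares. The members lay within a narrow range, from a log2 ratio of -0.09 for *Acaca* to 0.41 for *Scd1*, and their median was 0.11. With a smaller fold of 0.3, *Scd1* alone of the members was past it, against 13.7% of the background genes that were higher and 12.9% that were lower. In all, 7 members had a higher and 3 a lower value in Npffr1-KO. The signs of the small ratios depend on the scale used. Centred on genes of like length, *Acaca* and *Acacb* turned from lower to higher and *Thrsp* from higher to lower, and *Acly* turned to lower when the genotypes were scaled to their 75th percentile. The summed value of the 10 genes was 81369 normalized counts in WT and 101099 in Npffr1-KO, or 0.352% and 0.428% of all counts. Most of this difference of 19730.1 normalized counts lay in *Scd1*, which accounts for 15199 of it. Without *Scd1* the sum was 35256 normalized counts in WT and 39787 in Npffr1-KO, a log2 ratio of 0.17.

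**Figure D1:**
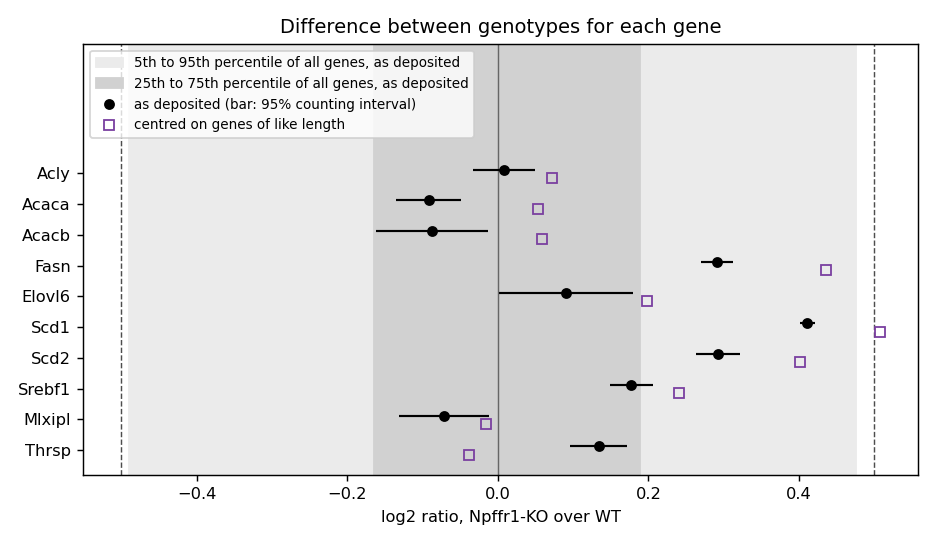
The log2 ratio of Npffr1-KO over WT is plotted for each gene, as deposited (filled circles, with a bar for the 95% counting interval) and centred on genes of like length (open squares). The shaded bands give the 25th to 75th and the 5th to 95th percentile of the 15309 background genes, and dashed lines mark a log2 ratio of 0.5 in size. All filled circles lie between the dashed lines, and only the centred value of *Scd1*, 0.51, lies beyond one of them.

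The members that act at the first steps of the pathway differed little between the genotypes. *Acly* encodes ATP-citrate lyase, which makes cytosolic acetyl-CoA. Its value was 3133 normalized counts in WT and 3151 in Npffr1-KO, a log2 ratio of 0.01, next to the median of the background. *Acaca* encodes acetyl-CoA carboxylase 1, the cytosolic form of the rate-limiting enzyme, and had 2972 normalized counts in WT and 2788 in Npffr1-KO, a log2 ratio of -0.09. *Acacb* encodes acetyl-CoA carboxylase 2, which sits at the outer mitochondrial membrane and whose malonyl-CoA is known to restrain fatty acid oxidation. It had 1009 normalized counts in WT and 949.8 in Npffr1-KO, also a log2 ratio of -0.09. Both carboxylase genes were thus slightly lower in Npffr1-KO. Centred on genes of like length they were at 0.05 and 0.06, since genes as long as these, in the class from 7427 bases upwards, had a median of -0.15. The balance of the carboxylases was almost the same in both genotypes. *Acaca* exceeded *Acacb* by 2.94-fold in WT as well as in Npffr1-KO, so that *Acaca* made up 74.7% and 74.6% of their summed value.

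*Fasn*, the gene of fatty acid synthase, was higher in Npffr1-KO. Its value was 10619 normalized counts in WT and 12990.3 in Npffr1-KO, which is 1.22-fold and a log2 ratio of 0.29. This ratio lay at the percentile of 85.5 among the background genes, and at 95.4 after centring on genes of like length, where it was 0.44. *Fasn* is the longest of the members, with 9938 bases listed. Of the members that act before it, *Acly* had a log2 ratio of 0.01 and *Acaca* of -0.09. The lists for acetyl-CoA supply and NADPH supply, described below, had medians of 0.35 and 0.22. The ratio of *Fasn* to *Acaca* was 3.57 in WT and 4.66 in Npffr1-KO, and that of *Fasn* to *Acly* was 3.39 in WT and 4.12 in Npffr1-KO. Without a spread between samples these shifts could not be tested.

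Among the genes that act on palmitate, the desaturases differed more between the genotypes than the elongase, all with higher values in Npffr1-KO. *Elovl6*, whose product elongates palmitate to stearate, was the lowest of the 10 with 663 normalized counts in WT and 705 in Npffr1-KO. Its log2 ratio was 0.09, or 0.20 after centring on genes of like length, at the percentile of 82.8. *Scd1* encodes stearoyl-CoA desaturase 1, which makes oleate from stearate. It was by far the highest member, with 46113 normalized counts in WT, exceeded by 26 genes of the whole table, and 61312 in Npffr1-KO. The log2 ratio of 0.41, or 1.33-fold, was the largest of the members and lay at the percentile of 92.8 in the background. In absolute terms only 4 genes of the table gained more normalized counts in Npffr1-KO than *Scd1*. Centred on genes of like length its ratio was 0.51, just past the fold, where 3.36% of the background genes were higher to that extent. *Scd2*, the desaturase gene known to prevail in brain, in myelin and in young animals, had 5677 normalized counts in WT and 6952 in Npffr1-KO. Its log2 ratio of 0.29 equals that of *Fasn* at 2 decimals, and its centred ratio was 0.40.

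In the RefSeq gene annotation of the mouse the 4 stearoyl-CoA desaturase genes follow each other in the order *Scd3*, *Scd2*, *Scd4* and *Scd1*, with no other protein-coding gene between them. *Scd1* and *Scd2* carried nearly all of the expression of this group. *Scd3*, known from the sebaceous glands of the skin, had 22.7 normalized counts in WT and 24.6 in Npffr1-KO, and *Scd4*, known from the heart, had 24.9 and 23.7. *Scd1* made up 89.0% of the sum of *Scd1* and *Scd2* in WT and 89.8% in Npffr1-KO. These genes are close copies. The coding sequences of *Scd1* and *Scd2* in GENCODE M21 are identical at 90.3% of 1065 aligned bases, against 71.8% of 6918 aligned bases for *Acaca* and *Acacb*. Of the sequences of 31 bases in the *Scd1* transcripts, 8.14% are found in other genes too, and so do 6.81% of those of *Scd2*. For both the gene that shares most is *Scd3*. *Scd1* and *Scd2* share 253 of these sequences with each other, 5.18% of those of *Scd1* and 4.63% of those of *Scd2*. Reads from such stretches can be assigned to either gene, so the values of these genes are uncertain there. For *Acaca* the shared part was 33.4%, nearly all of it with the pseudogene *Gm5182*, which is not listed in the table. None of the sequences of 31 bases in *Acly*, *Fasn* and *Acacb* was shared. Exons of *Srebf1* overlap those of *Rai1* on the opposite strand, which had 1378 normalized counts in WT and 1173 in Npffr1-KO. Whether the libraries kept the strand is not stated, so reads of the overlap cannot be told apart.

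**Figure D2:**
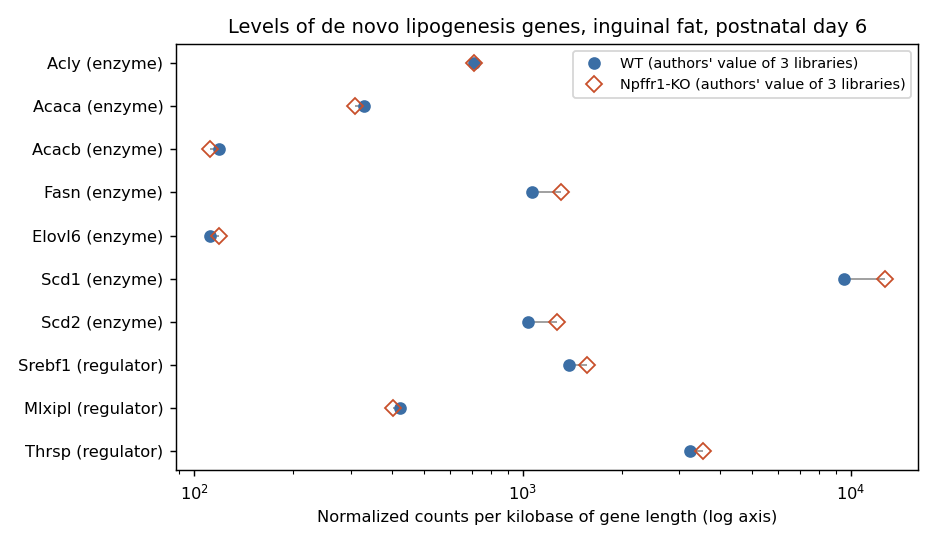
Normalized counts per kilobase of gene length are shown on a log axis for each gene in WT (filled circles) and Npffr1-KO (open diamonds), each being the authors' value for 3 libraries. *Scd1* stands above the others with 9519.5 per kilobase in WT, *Elovl6* and *Acacb* are lowest, and the distance between the genotypes is small beside the distance between genes.

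Compared per kilobase of the gene length listed in the table, the levels of the 10 genes in WT spanned from 111 normalized counts per kilobase for *Elovl6* to 9519.5 for *Scd1*. *Thrsp* came next to *Scd1* with 3228 normalized counts per kilobase in WT, while by undivided level it ranked 5 of 10, and was followed by *Srebf1* with 1383, *Fasn* with 1069 and *Scd2* with 1041. Lower levels were found for *Acly* with 708, *Mlxipl* with 424, *Acaca* with 328 and *Acacb* with 119 normalized counts per kilobase in WT. The order was the same in Npffr1-KO but for the last places, where *Elovl6* with 119 stood above *Acacb* with 112 normalized counts per kilobase. The level of *Scd1* was 85.5-fold that of *Elovl6* per kilobase in WT and 107-fold in Npffr1-KO. All 10 genes were above the middle of the table in WT, from the percentile of 64.3 for *Elovl6* to 99.9 for *Scd1* among all listed genes. As these are values of whole tissue, more fat cells and more RNA per fat cell cannot be told apart in them.

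Of the regulators, *Srebf1* was the highest by count. It encodes SREBP-1, which activates the genes of fatty acid synthesis once it is cleaved from its membrane anchor. Its value was 6010.0 normalized counts in WT and 6796 in Npffr1-KO, a log2 ratio of 0.18 at the percentile of 73.6. *Mlxipl* encodes ChREBP, which activates lipogenic and glycolytic genes in response to glucose metabolites. It was slightly lower in Npffr1-KO, with 1547 normalized counts in WT and 1472 in Npffr1-KO and a log2 ratio of -0.07. *Thrsp* encodes the thyroid hormone responsive protein Spot 14, which is known to accompany high rates of lipogenesis. Its value was 3628 normalized counts in WT and 3982 in Npffr1-KO, a log2 ratio of 0.13. With a listed length of 1124 bases *Thrsp* is the shortest member, and genes of like length had a median of 0.17, so its centred ratio was -0.04. The regulators therefore lay between -0.07 and 0.18 on the log2 scale as deposited, and between -0.04 and 0.24 after the centring. A single value per gene does not separate the transcripts of *Srebf1*, which encode SREBP-1a and SREBP-1c from different first exons, nor those of *Mlxipl*, which start at an upstream or a downstream promoter.

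**Figure D3:**
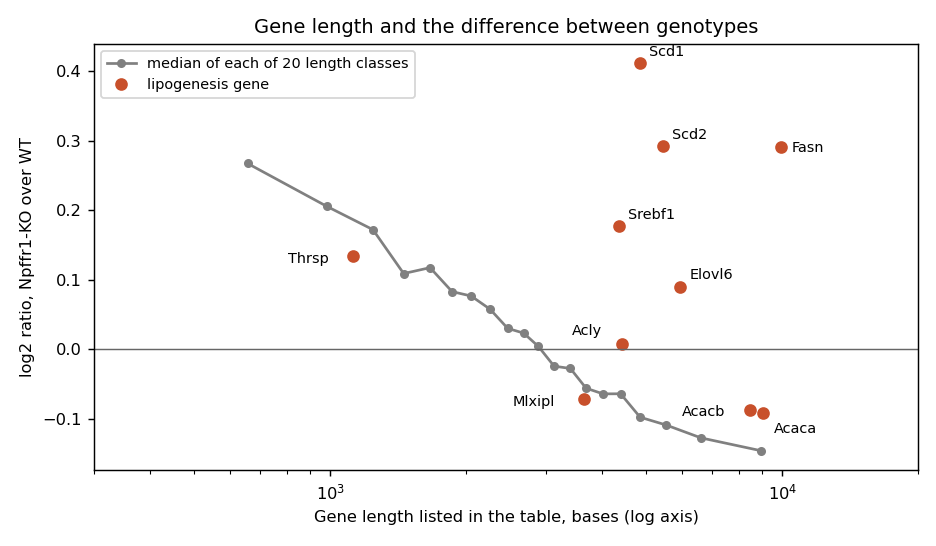
The log2 ratio of each lipogenesis gene (red) is plotted against its listed length on a log axis, with the median of each of 20 length classes of background genes (grey) at the median length of the class. *Scd1*, *Scd2*, *Fasn*, *Srebf1* and *Elovl6* lie above the grey line by 0.20 to 0.51, *Acly*, *Acaca* and *Acacb* by 0.05 to 0.07, while *Mlxipl* and *Thrsp* lie just below it.

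RefSeq promoter windows of GRCm38.p6, from 250 bases before to 50 after the start, were found for 8 of the 10 genes, 11 windows in all. *Scd1* and *Scd2* had no window, so their promoters were not searched. They were searched on both strands for the NF-Y box (CCAAT), the GC box bound by Sp1 (GGGCGG), the E-box (CACGTG), a sterol regulatory element (TCACNCCAC) and the TATA box (TATAAA). The NF-Y box was found in 7 of the 11 windows, those of *Fasn*, *Thrsp*, *Acacb* and *Acly*, 2 of *Srebf1* and 1 of *Mlxipl*, against 37.4% of all 32851 windows. The GC box occurred in 4 of the 11, of *Acly*, *Srebf1* and *Mlxipl*, against 35.7% of all windows. The TATA box was found in 1 window, of *Acacb*, and the E-box and the sterol regulatory element in 1 each, of *Mlxipl*, against 13.6%, 7.15% and 1.24% of all windows. A match is a run of letters and not a site of binding, and these windows leave out more distant elements. The stretches below run from 130 bases before to 20 bases from the start, 150 bases each, with matches in capitals. *Fasn* and *Thrsp* are shown because both hold NF-Y boxes in opposite directions close to the start, *Acly* for its row of GC boxes, and the *Mlxipl* windows because the single value of this gene covers both starts.

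Fasn, chr11:120824528-120824677, minus strand: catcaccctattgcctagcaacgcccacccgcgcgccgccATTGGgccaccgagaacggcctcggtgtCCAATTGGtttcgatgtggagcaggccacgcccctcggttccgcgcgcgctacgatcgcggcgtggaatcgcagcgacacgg

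Thrsp, chr7:97417531-97417680, minus strand: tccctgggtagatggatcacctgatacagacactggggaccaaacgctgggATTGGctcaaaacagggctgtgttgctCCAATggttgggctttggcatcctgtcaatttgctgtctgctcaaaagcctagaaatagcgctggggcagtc

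Acly, chr11:100527981-100528130, minus strand: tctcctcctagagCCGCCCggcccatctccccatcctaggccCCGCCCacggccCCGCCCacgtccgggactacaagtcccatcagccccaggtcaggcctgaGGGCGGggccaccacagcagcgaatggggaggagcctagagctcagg

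Mlxipl, upstream start, chr5:135089760-135089909, plus strand: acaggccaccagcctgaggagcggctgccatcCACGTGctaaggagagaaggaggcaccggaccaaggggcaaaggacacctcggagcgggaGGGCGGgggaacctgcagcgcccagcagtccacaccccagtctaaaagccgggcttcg

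Mlxipl, downstream start, chr5:135106761-135106910, plus strand: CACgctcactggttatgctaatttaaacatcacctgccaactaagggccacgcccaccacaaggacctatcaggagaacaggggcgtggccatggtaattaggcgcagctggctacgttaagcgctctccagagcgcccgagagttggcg

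In the *Fasn* promoter NF-Y boxes of opposite strands overlap, at -62 to -58 and -59 to -55 counted from the start, and another begins at -90. In that of *Thrsp* they begin at -79 and -52. *Fasn* had a log2 ratio of 0.29 and *Thrsp* of 0.13. Of the *Mlxipl* windows the upstream holds the E-box, at -98 to -93. The sterol regulatory element of the downstream window lies at -136 to -128, so only its last 3 bases are within the stretch shown.

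The genes around the pathway were described with 11 lists of 81 genes, all of which are in the table. Of these, 76 averaged 10 normalized counts or more. Past the fold were 6 that were higher and 3 that were lower in Npffr1-KO, beside 4.37% and 4.78% of the background genes, and the median over the 76 genes was 0.12. A value above 0 was found for 54 of the 76, and for 7835 of the 15309 background genes. All 6 genes of the list for acetyl-CoA supply and all 7 of that for NADPH supply had higher values in Npffr1-KO. This held both as deposited and after centring on genes of like length. The median log2 ratio of acetyl-CoA supply was 0.35, or 0.25 after the centring. *Cs*, citrate synthase, had 12825 normalized counts in WT and 18646 in Npffr1-KO, a log2 ratio of 0.54. *Slc25a1*, the carrier that exports citrate from mitochondria to ATP-citrate lyase, had 4313 and 5481 normalized counts, and *Mpc1* of the pyruvate carrier had 4077 and 5188, with a log2 ratio of 0.35 for both. The list for NADPH supply had a median of 0.22 on either scale and none of its genes was past the fold. The log2 ratio was 0.47 for *Tkt*, 0.40 for *Taldo1* and 0.21 for *Idh1*. Of those named after their values were seen, *Me1* was at 0.22, *G6pdx* and *Pgd* at 0.12 and *Pgls* at 0.42. *Tkt*, *Taldo1* and *Pgls* belong to the pentose phosphate pathway but do not form NADPH themselves.

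The genes that extend or desaturate other fatty acids showed no common direction. Of the elongases and the enzymes of the elongation cycle 9 of 11 had a mean of at least 10, with a median log2 ratio of 0.03. *Tecr*, the last enzyme of the cycle, was at 0.23, *Elovl5*, an elongase of polyunsaturated fatty acids, at -0.11 and *Hsd17b12* at 0.03. The median of the 5 other desaturases was -0.07, with 0.23 for *Fads3*, -0.14 for *Fads1* and -0.20 for *Fads2*, of which the latter make polyunsaturated fatty acids. All 9 genes of the separate fatty acid synthesis of mitochondria, which serves lipoic acid, were higher in Npffr1-KO as deposited, with a median of 0.30. *Ndufab1*, the mitochondrial acyl carrier protein, had 1867 normalized counts in WT and 2791 in Npffr1-KO, a log2 ratio of 0.58, and *H2-Ke6*, a former symbol of *Hsd17b8*, was at 0.30 and *Lias* at 0.10. Centred on genes of like length 8 were higher and 1, *Cbr4*, named after its value was seen, was lower at -0.02. The median of the list was then 0.15 and *Ndufab1* was at 0.31.

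Of the genes that regulate the pathway, single genes differed more than the members did. *Insig1* encodes the protein that holds the SREBP precursor in the endoplasmic reticulum and is itself a known SREBP target. It had 2828 normalized counts in WT and 5029 in Npffr1-KO, a log2 ratio of 0.83 at the percentile of 99.1. The other 5 genes of SREBP processing were between -0.20 and 0.14, among them *Mbtps1* at -0.07 and *Srebf2* at 0.14. *Ppargc1b*, a coactivator of SREBP-1, had 201 normalized counts in WT and 374 in Npffr1-KO, the largest log2 ratio of the 76 genes at 0.90. The other 9 nuclear receptors and promoter factors lay between -0.11 and 0.20, with -0.11 for *Rxra*, 0.01 for *Usf2* and -0.05 for *Nr1h2*, the gene of LXR-beta. *Mid1ip1*, whose product is related to Spot 14 and aids the polymerization of acetyl-CoA carboxylase, had 1004 normalized counts in WT and 1454 in Npffr1-KO, a log2 ratio of 0.53. Its binding partner *Mid1* was lower, with 865 normalized counts in WT and 554 in Npffr1-KO, a log2 ratio of -0.64. The median of these 5 carboxylase regulators was 0.01, and *Btd*, the highest of them, had 1573 and 1570.1 normalized counts.

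The partners and known targets of ChREBP had no common direction. *Txnip*, the gene of a thioredoxin-binding protein that answers to glucose, had 33021 normalized counts in WT and 21034 in Npffr1-KO, a log2 ratio of -0.65. *Arrdc4*, a relative of *Txnip* that was chosen after its value was seen, was at -0.46, while *Gpd1*, which makes glycerol phosphate for triglycerides, was at 0.24 and *Mlxip*, the gene of a relative of ChREBP, at -0.19. *Pklr*, the pyruvate kinase gene of liver, had a mean under 10 normalized counts. Among the 5 genes used the median was -0.19. In the list of insulin signalling and glucose entry *Irs1*, the gene of insulin receptor substrate 1, had 2344 normalized counts in WT and 1640.0 in Npffr1-KO, a log2 ratio of -0.52. *Akt2* was at 0.26 and *Slc2a4*, the glucose transporter of fat and muscle, at 0.13, and the median of 7 genes was 0.01. Among 7 cholesterol genes that answer to sterols the median was 0.11, with *Hmgcs1* at 0.08 and *Idi1* at 0.14. After centring on genes of like length *Mid1ip1*, *Irs1* and *Ndufab1* were no longer past the fold, at 0.46, -0.37 and 0.31. *Cs*, *Insig1*, *Ppargc1b*, *Txnip* and *Mid1* stayed past it, and *Hk2*, named after its value was seen, came to 0.51.

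**Figure D4:**
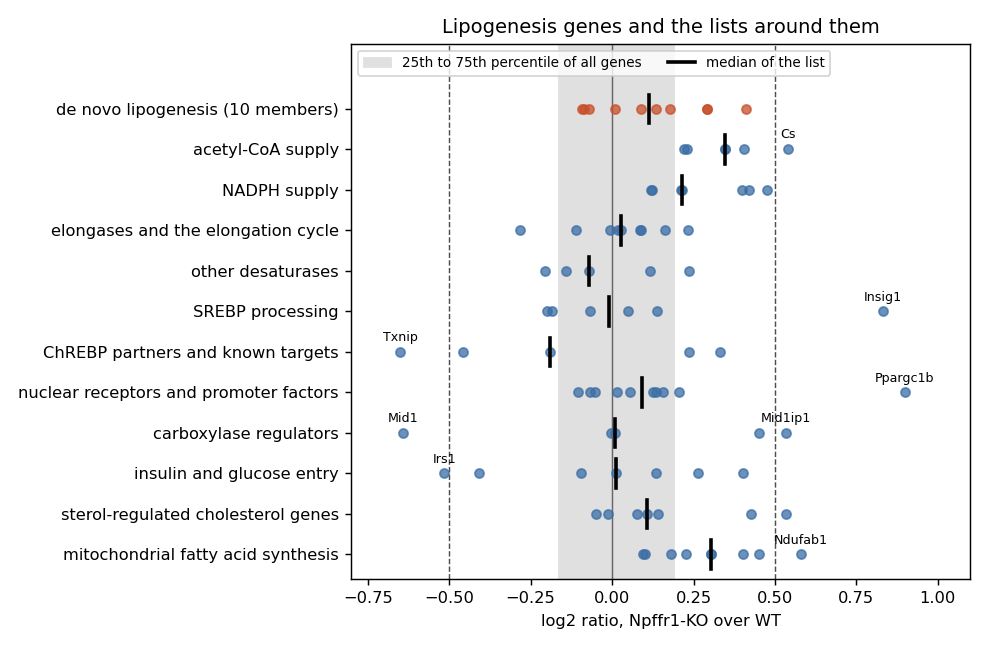
Each point is the log2 ratio of a gene, with the 10 lipogenesis genes in red and 11 lists of related genes in blue, each gene averaging 10 normalized counts or more. Black bars mark the median of a list, the shaded band the 25th to 75th percentile of the background genes, and dashed lines a log2 ratio of 0.5 in size. Labels name genes beyond the dashed lines, and no lipogenesis gene lies there.

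Markers of the cells in the tissue were set beside these values, and their part in the results was not tested. The summed value of 7 adipocyte markers was 202153 normalized counts in WT and 200004 in Npffr1-KO, a log2 ratio of -0.02. For the sum of the lipogenesis genes it was 0.31, or 0.17 without *Scd1*. *Cfd* alone accounts for 92905 normalized counts of the marker sum in WT. In Npffr1-KO 4 of the 7 markers had a higher and 3 a lower value, and their median log2 ratio was 0.03. *Cfd* was at -0.13 and *Adipoq* at -0.07, and of those named after their values were seen *Plin1* was at 0.15, *Cidec* at 0.18, *Lipe* at 0.03 and *Lep* at 1.05. Markers of thermogenic adipocytes, which also synthesize fatty acids, had a summed value of 1569 normalized counts in WT and 5212 in Npffr1-KO. Of the 7, 6 had a mean of at least 10, and 5 of these were past the fold, with log2 ratios of 1.77 for *Cox8b* and 1.55 for *Ucp1*. *Elovl3*, a defining elongase of brown fat, had only 0.452 normalized counts in WT and 0.511 in Npffr1-KO. All 6 markers of Schwann cells, which use *Scd2* in making myelin, were lower in Npffr1-KO, with a summed value of 37459 normalized counts in WT and 26675 in Npffr1-KO and a log2 ratio of -0.44 for *Mbp*. *Scd2* had a log2 ratio of 0.29, and the part of Schwann cell RNA in its value was not tested.

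Markers of other tissues with strong lipogenesis had low values. Of 7 markers of mammary and other simple epithelium 6 are in the table, and their sum was 153 normalized counts in WT and 120.3 in Npffr1-KO, led by *Cdh1* and *Epcam*. *Cdh1* had a log2 ratio of -0.72 and *Epcam* of 0.34. Of the 3 with a mean of at least 10, 1 was higher and 2 were lower. The milk gene *Csn2* had 0.473 and 0.537 normalized counts. The 7 markers of keratinocytes and sebaceous glands summed to 231 and 267 normalized counts, led by *Krt79* and *Krt10*. The hepatocyte markers, 4 of 5 of which are in the table, summed to 466 and 476 normalized counts, most of it *Alb*, followed by *Serpina1a*. Of the remaining lists the skeletal muscle markers summed to 452 normalized counts in WT and 828 in Npffr1-KO, led by *Acta1* and *Myh8*, and the T cell markers to 5515 and 8587, led by *Lck* and *Cd4*. The B cell markers, led by *Cd79a*, summed to 8386 and 9958 normalized counts, and the macrophage markers, led by *Lyz2* and *Csf1r*, to 18123 and 20837. Of the 6 macrophage markers 3 were higher and 3 lower, with a log2 ratio of 0.37 for *Lyz2* and -0.07 for *Csf1r*. Lower sums in Npffr1-KO were found for adipocyte progenitors, led by *Dlk1* and *Cd34*, with 37486 normalized counts in WT and 29159 in Npffr1-KO. Of the 7 progenitor markers 6 were lower and 1 higher, with a log2 ratio of -0.87 for *Dlk1* and -0.15 for *Cd34*. *Dlk1* alone had 13526 normalized counts in WT and 7412 in Npffr1-KO. The endothelium markers, led by *Cdh5* and *Pecam1*, also had a lower sum in Npffr1-KO, with 50723 and 40511 normalized counts.

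How far counting alone could set these ratios was estimated by taking 3 times each value as the number of reads of a genotype. This number is an assumption, since the values are normalized and are not plain means of the 3 libraries. The intervals are therefore approximate. The 95% exact binomial interval, which covers counting error only, was from 0.40 to 0.42 for the log2 ratio of *Scd1* and from 0.27 to 0.31 for that of *Fasn*. For *Acly* it was from -0.03 to 0.05 and held 0, which was the case for 1 of the 10 genes. For *Elovl6*, the gene with the fewest counts, it was from 0.001 to 0.18. Differences between animals are not part of these intervals, so the log2 ratios of the lipogenesis genes cannot be set against the spread between samples.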

How the data were processed

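RNA of inguinal adipose tissue at postnatal day 6 was extracted with TRIzol by the authors from 3 WT and 3 Npffr1-KO samples, grouped here by the sample labels. The submitters' processing notes name Bowtie2, RSEM and DESeq2. Their roles and versions, the genome build and the annotation were not given in the sources used here. The deposited table gives 1 signal value per gene and genotype, on the scale of counts the authors normalized for library size, and a gene length in bases. Its columns of the authors' own comparison (a fold change, a p-value, an adjusted p-value and a call) were not used, nor was a second table that repeats genes selected by them. Reads of each library are not listed, so depth is known only through these values.

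Log2 ratios were computed without a pseudocount in Python 3.11.15 with pandas 2.3.3, and list summaries over genes with a mean of the 2 values of at least 10. No test was run. Alternatives were a pseudocount of 1 or 10, subtracting the median over genes, scaling to the 75th percentile, centring within 20 classes of gene length (checked on ratios made with a known trend), scaling to the adipocyte markers, folds of 0.3 and 1, and minimums of 0 and 100. Named are the 10 members, *Npffr1*, the 3 genes with the highest WT value and those past the fold in each of 11 pathway lists, and the 2 highest in each of 12 marker lists, and a few of these genes are not reported here. The members and lists were chosen with earlier results of these data known. Of the listed symbols 1 was matched by its gene identifier. Promoter windows came from RefSeq (GRCm38.p6) and transcripts from GENCODE M21 (GRCm38), aligned with Biopython 1.88.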

Additional observations from a re-analysis of the deposited data

How the results depend on the processing

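No paired analysis was possible because the table holds a single value per genotype, and for the same reason no replicate could be left out. The differences therefore have no replicate check, and the depth of each library is not known. No setting turned the sign of the median of the 10 lipogenesis genes. The count of members past the fold, 0 as reported, was 1 with a fold of 0.3 and 1 after centring on genes of like length, *Scd1* in both cases. That centring moved the list medians to 0.25 for acetyl-CoA supply, 0.054 for SREBP processing, -0.063 for ChREBP partners and targets, 0.047 for nuclear receptors and promoter factors, 0.11 for carboxylase regulators and 0.15 for mitochondrial fatty acid synthesis. A minimum mean of 100 gave 0.086 for the elongases and -0.14 for the other desaturases, and no minimum gave 0.023 for the ChREBP list and 0.072 for insulin and glucose entry. In the order of levels 5 members took another rank when levels were not divided by length, and 2 in Npffr1-KO. Per kilobase *Acaca* made up 73.4% of both carboxylases in WT and 73.4% in Npffr1-KO, and *Scd1* 90.1% and 90.8% of *Scd1* and *Scd2*. Among single genes, 11 of the values moved by at least the distance from the middle of their counting interval to its end, and 49 did not. The cause of these shifts was not tested beyond the construction of each setting.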

Other observations

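The table also carries gene annotation, and 35 genes in it are annotated to the fatty acid biosynthetic process, a list chosen after values were seen. The 11 pathway lists above already hold 13 of the 35, so part of these values repeats those lists. Of the 35 genes, 31 had a mean of at least 10 normalized counts, among them the members *Acly*, *Fasn*, *Scd1* and *Scd2*. A higher value in Npffr1-KO was found for 26 and a lower one for 5, with a median log2 ratio of 0.13. After centring on genes of like length 21 were higher and 10 lower, with a median of 0.07. Of the 15309 background genes 7835 were higher and 7474 lower as deposited. Past the fold were 2 that were higher and 2 that were lower, beside 4.37% and 4.78% of the background genes. *Prkag3*, a subunit of the AMP-activated kinase known from skeletal muscle, had 11.3 normalized counts in WT and 29.9 in Npffr1-KO, a log2 ratio of 1.40, and the skeletal muscle markers summed to 452 and 828 normalized counts. The other higher gene was *Ndufab1*. *Fa2h*, which makes the 2-hydroxy fatty acids of myelin lipids, had 359 normalized counts in WT and 224 in Npffr1-KO, a log2 ratio of -0.68, while the Schwann cell markers summed to 37459 and 26675. *Prkab2*, another subunit of the kinase that phosphorylates acetyl-CoA carboxylase, had 406 and 271 normalized counts, a log2 ratio of -0.58. The part of muscle or Schwann cell RNA in these values was not tested.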
